A study of Drosophila melanogaster with 16 samples.

Results

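The genes described here encode the proteins of the cytosolic ribosome in Drosophila melanogaster. They are the 92 of 15682 genes in the deposited table whose symbol begins with RpL or RpS and a number, or with RpLP. Of these, 65 stand alone under their number: 38 of the large subunit, 25 of the small subunit, and the stalk proteins RpLP1 and RpLP2. The other 27 belong to 13 pairs of copies, named a and b or with the ending -like, or, as RpS28-like, are a further copy of a pair. The symbols fixed the membership and no measured value did.

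Every cytosolic ribosome is built from one set of ribosomal RNAs and nearly equal numbers of each ribosomal protein, and cells hold the transcripts of these proteins at high and similar levels. The stalk, made of RpLP0, RpLP1 and RpLP2, recruits elongation factors to the large subunit. Most fly ribosomal protein genes are single, and loss of 1 copy of many of them gives the slow-growing Minute phenotype. Several duplicated genes have one copy used throughout the body and another known from the germline, among them RpS5b and RpS19b, which are enriched in ovarian germ cells, and RpL22-like, known from the germline of the testis.

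RNA from sorted neurons of the wild-type pupal visual system, labelled optical lobe, was sequenced in 16 libraries. The photoreceptors were R7 and R8, the colour-sensing cells of each unit of the compound eye, with 2 libraries each. The lamina neurons were L1, L2, L4 and L5 with 2 libraries each and L3 with 4, cells that receive or relay input in the first optic neuropil. No treatment is given, and the sources used here do not name the lines that marked the cells for sorting. By the age labels L1 was taken at 24 h, L2 at 35 h, L3 at 40 h, L4 at 45 h, L5 at 53 h, R7 at 65 h and R8 at 96 h of pupal development. The protocol puts all dissections at 40 h, and so do the headings of the lamina columns. If the age labels hold, age and cell type cannot be told apart in any comparison below. Nothing says that replicates came from separate animals, so p-values measure a spread between libraries that may be technical.

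The values are RPKM, reads scaled by gene length and by the mapped reads of the library, so levels can be compared between genes. Depth ran from 47.1 M to 153.6 M reads. The 11 photoreceptor markers examined were all higher in R7 and R8 and the 11 lamina markers all lower, and their summed levels did not overlap: 2823 to 3868 RPKM in R libraries against 9.13 to 164.4 RPKM in L libraries for the photoreceptor set, and 7.56 to 12.5 RPKM in R libraries against 354.4 to 1347 RPKM in L libraries for the lamina set. Differences are given on the scale of log2(RPKM + 1) with a standard error from a limma fit over all 7 types. A gene is called when its p adjusted over all 9346 genes tested is under 0.05.

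Transcripts of the 92 genes made up a large part of each library. They held 22.8 and 23.4% of the summed RPKM in R7 and 23.7 and 26.6% in R8, against 13.8 and 14.3% in L1, 16.8 and 17.2% in L2, 17.3, 21.2, 16.7 and 14.7% in L3, 15.6 and 21.9% in L4 and 16.7 and 23.0% in L5. Among lamina libraries, only L5 replicate 2 reached the range of R7. The median over the 65 single-copy genes was 1469 and 1525 RPKM in R7 and 1386 and 1687 RPKM in R8, and it ran from 660.6 to 1322 RPKM over the 12 lamina libraries, so on this measure no lamina library reached the photoreceptors. In sorted cells measured in bulk, fewer cells of a type and less RNA per cell cannot be told apart, and a share of the library does not give the amount per cell.

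**Figure D1:**
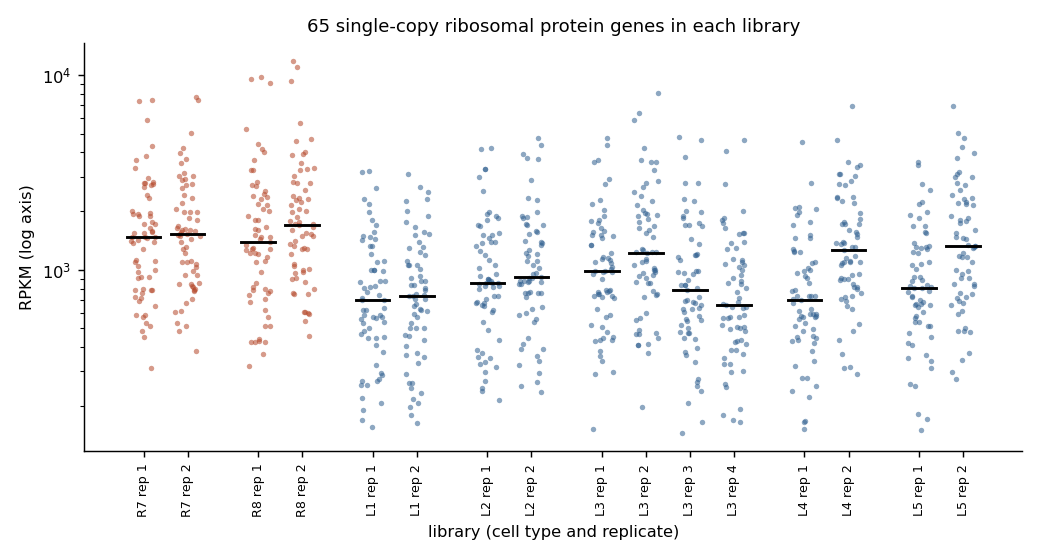
RPKM on a log axis of the 65 single-copy genes (points) and their median (bars) in each library, R7 and R8 in red and L1 to L5 in blue. The medians of the 4 photoreceptor libraries, 1386 to 1687 RPKM, lie above all 12 lamina medians, and replicates of L4 and of L5 stand apart from each other.

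Replicates of 1 lamina type could differ as much as types did. Over the single-copy genes, the median log2 difference of replicate 2 from replicate 1 was 0.84 in L4 and 0.72 in L5, but 0.06 in R7, 0.29 in R8, 0.05 in L1 and 0.14 in L2. In L3, replicate 2 lay 0.36 above replicate 1 and replicate 4 lay 0.86 below replicate 2. These genes therefore moved as a block between libraries of the same cell type, which widens the error of every lamina comparison below.

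Within a library the genes kept a steady order of abundance. Mean levels over the 7 types ran from 321.1 RPKM for RpL14 to 5615 RPKM for RpS29, a 17.5-fold range around a median of 1110 RPKM. All 65 single-copy genes exceeded 100 RPKM in each of the 16 libraries. The rank correlation of their levels between any pair of types was 0.869 to 0.972 across the 65 genes (Spearman's rho, 21 pairs). These points share libraries and genes and are given as a description. The 5 highest members were the small-subunit genes RpS29, RpS28b and RpS9 and the large-subunit genes RpL23 and RpL41, the last of which encodes the shortest of the ribosomal proteins. RpS29 stood at 7411 and 7681 RPKM in R7 and 9061 and 9289 RPKM in R8, against 2500 to 8095 RPKM in the lamina. RpL41 and RpL23 reached the highest single values, both in R8 replicate 2 (11766.5 and 10995 RPKM). Level and exonic length were nearly unrelated across the 61 single-copy genes with a length (rho −0.14).

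The members lie on all the larger chromosome arms. Of the 87 with an ID in the current annotation (BDGP6), 23 lie on 3R, 19 on 2R, 18 on 2L, 13 on 3L, 13 on X and 1, RpS3A, on chromosome 4. For 12 of the 13 pairs both copies could be placed, and in only 3 pairs do they lie on the same arm (RpL34a and RpL34b on 3R, RpS14a and RpS14b on X, RpL7 and RpL7-like on 2L). Only RpS14a and RpS14b are direct neighbours, and since they are near-identical, their reads may be split between them arbitrarily. Genes annotated with 1 exon were 6 of 87: RpLP2, RpS15Ab, RpS10a, RpL10Aa, RpL37b and RpS28a.

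The series, by its title, concerns surface ligands and receptors of synaptic partners, and the same contrast of R7 and R8 with L1 to L5 was read here for the ribosomal protein genes. Of the 87 members tested, 77.0% were called higher in photoreceptors and 4.6% lower (4 members, and 2 without R7 replicate 1 or R8 replicate 1), against 31.7% of all genes tested called higher and 30.2% called lower. The median log2 difference was 0.81 over the members and −0.02 over all genes. The large and the small subunit gave like counts. Of 38 single-copy large-subunit genes 30 rose and 0 fell, with a median of 0.81. Once the libraries were set to an equal single-copy median, 8 were called higher and 7 lower, with a median of 0.03. Of 25 small-subunit genes 22 rose and 0 fell, with a median of 0.81. After the same scaling 6 were called higher and 4 lower, with a median of 0.04. The scaling itself sets the median of the single-copy genes near 0, so the scaled medians and counts do not test the rise. As deposited, the falling genes also numbered 0 in both subunits at an unadjusted p under 0.05 (limma). By mean, 58 of the 65 single-copy genes had their highest type in R7 or R8, and 48 had their lowest in L1. These genes share the shifts of their libraries and no share of all genes was taken, so both counts are a description.

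The values of single libraries separate the groups less often than the test does. In 25 of 87 members all 4 photoreceptor libraries lay above all 12 lamina libraries, against 14.8% of all genes tested, and in 0 members did all 4 lie below, against 11.7% of all genes. Among the 25 were RpS13, RpS21, RpL27, RpS3, RpL7 and RpS28b. Another 11 single-copy genes besides the stalk were called neither way, with differences from −0.12 for RpL4 to 0.46 for RpS30, and these included RpL15 (−0.02), RpL8 (−0.08), RpL23A (0.09) and RpL31 (0.16).

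The single-copy genes with the highest differences were RpL38 and RpS21. RpS21, a small-subunit protein, stood at 782.1 and 812.2 RPKM in R7 and 786.9 and 903.0 RPKM in R8, against 164.3 to 417.4 RPKM with a median of 252.3 RPKM in the lamina. The groups did not overlap, and the log2 difference was 1.72 ± 0.24 (adjusted p = 3.67e-05, limma). RpL38, a large-subunit protein whose loss in mice alters skeletal patterning, had 785.2 and 609.1 RPKM in R7 and 1272 and 1284 RPKM in R8, against 164.7 to 744.4 RPKM in the lamina, where L3 replicate 2 was highest and reached above one R7 library. Its log2 difference was 1.72 ± 0.35 (adjusted p = 0.000835, limma). RpS13 stood at 3821 to 4710 RPKM in R libraries against 905.3 to 2398 RPKM in L libraries (1.39 ± 0.23), and RpL27 at 703.2 to 893.2 RPKM in R libraries against 221.9 to 469.6 RPKM in L libraries (1.33 ± 0.20). All 4 genes kept their call with any 1 library left out. For RpL27, 16% of exonic bases overlap another gene, so some reads may not be its own.

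**Figure D2:**
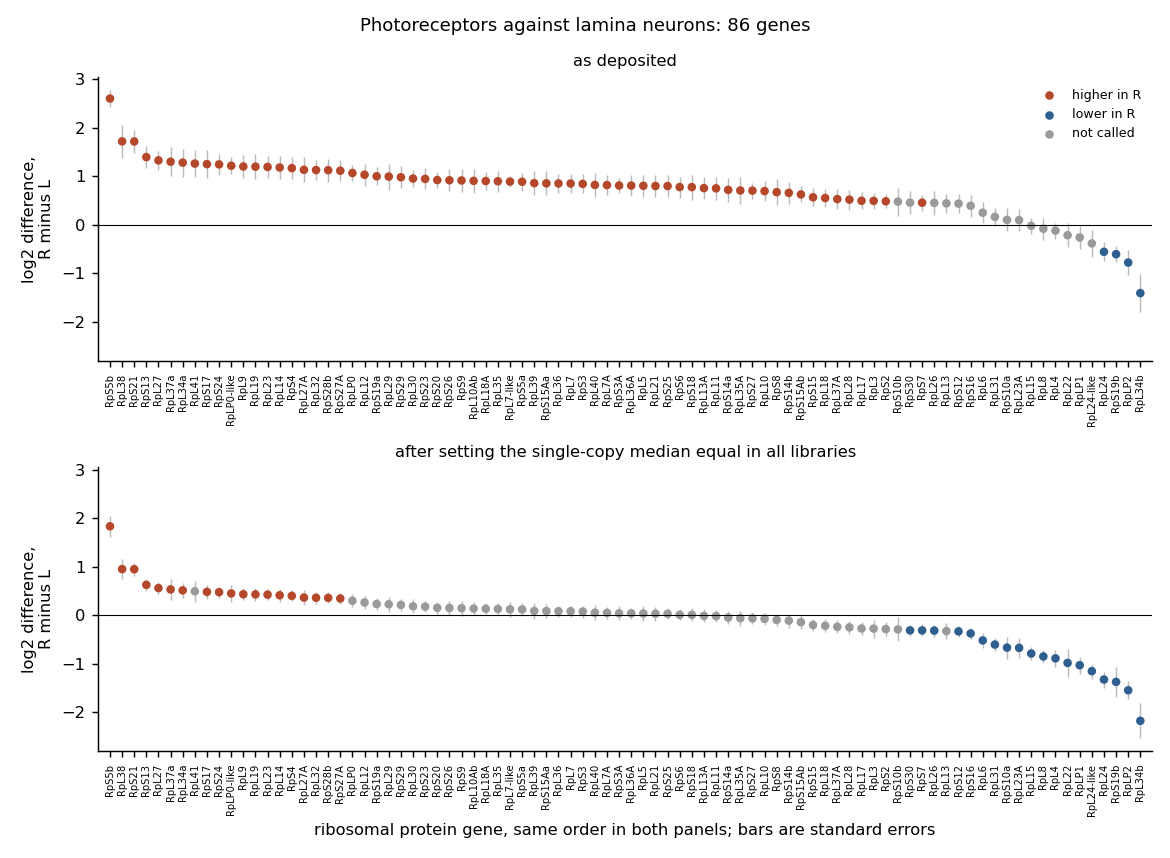
Log2 difference of R7 and R8 from L1 to L5 with its standard error for 86 of the 87 members tested, as deposited (top) and after the single-copy median was set equal in all libraries (bottom), in the same order. As deposited 66 points are called higher and 4 lower, while after scaling 19 are called each way, with RpS5b, RpL38 and RpS21 at one end and RpL34b, RpLP2, RpS19b and RpL24 at the other.

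Because the set moved as a block, each library was also shifted so that the median log2 level of the single-copy genes was equal everywhere. This scaling asks which members differ from the others. It sets the median of the single-copy genes near 0 in advance, so a near-even split of their calls is built in. It lowers each R against L difference by 0.77 and moved the median of all genes to −0.79, so that 10.2% of all genes were called higher in photoreceptors and 59.6% lower. Among the 87 members, 19 were called higher and 19 lower. Of the 67 members called higher as deposited, 19 kept that call, 18 had a difference below 0 and 1 was called lower. The 19 were led by RpS5b (1.83), RpL38 (0.95), RpS21 (0.94), RpS13 (0.62) and RpL27 (0.56). The lower ones included RpL34b (−2.18), RpLP2 (−1.55), RpS19b (−1.38), RpL24 (−1.33), RpL24-like (−1.16), RpLP1 (−1.04), RpL22 (−0.99), RpL4 (−0.89), RpL8 (−0.85) and RpL15 (−0.79). The shift was applied after the pseudocount, also to values near 0 RPKM. The scaled difference of RpS19b is therefore not a measure of its level relative to the other members. With levels taken relative to the single-copy median of the same library, all 4 photoreceptor libraries lay above all lamina libraries for RpL9, RpL19, RpS4, RpS13 and RpS21 (5 of 87 members, against 4.86% of all genes). They lay below them all for RpL24, RpL24-like, RpL31, RpLP2 and RpS12 (5 of 87 members, against 24.1% of all genes).

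The stalk proteins did not move together. RpLP0, the base of the stalk, stood at 3252 and 3582 RPKM in R7 and 2145 and 2841 RPKM in R8, against 884.4 to 2283 RPKM with a median of 1282 RPKM in the lamina. Only L2 replicate 2 reached above an R8 library, and the log2 difference was 1.07 ± 0.17 (adjusted p = 0.000117, limma). RpLP1, one of the acidic proteins that dimerise on that base, had 571.8 and 847.2 RPKM in R7 and 423.7 and 800.1 RPKM in R8, against 395.1 to 1060 RPKM in the lamina. The groups overlapped fully and the difference was −0.26 ± 0.24 (adjusted p = 0.350, limma).

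RpLP2, the partner of RpLP1, ran the other way from RpLP0. It had 1368 and 1573 RPKM in R7 and 1386 and 1660 RPKM in R8, against 1334 to 5030 RPKM with a median of 2306 RPKM in the lamina. Only 2 lamina libraries, L3 replicates 1 and 4, fell within or below the photoreceptor range. The log2 difference was −0.78 ± 0.26 (adjusted p = 0.0179, limma), and the call was lost without R7 replicate 1 or R8 replicate 1, where the adjusted p reached 0.0722. As a percentage of the single-copy median of the same library, RpLP2 stood at 93.1 to 103.1% in R libraries and 136.1 to 406.9% in L libraries, with no overlap. On the same measure RpLP1 stood at 30.6 to 55.5% in R libraries and 50.02 to 116.1% in L libraries, and RpLP0 at 154.7 to 234.8% in R libraries and 101.8 to 250.1% in L libraries. After ribosomal scaling RpLP0 was no longer called (0.29, adjusted p = 0.0583, limma). RpLP1 and RpLP2 were both called lower, as were 59.6% of all genes.

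RpL24, a large-subunit protein at the interface with the small subunit, showed a like pattern. It had 525.7 and 550.6 RPKM in R7 and 579.6 and 638.1 RPKM in R8, against 563.9 to 1345 RPKM with a median of 763.6 RPKM in the lamina. Only L3 replicate 1 fell among the photoreceptor values. The log2 difference was −0.56 ± 0.19 (adjusted p = 0.0231, limma), and the call was lost without any 1 of the 4 photoreceptor libraries, with an adjusted p of up to 0.0810. Relative to the single-copy median, RpL24 stood at 35.8 to 41.8% in R libraries and 57.5 to 109.8% in L libraries. An antisense neighbour overlaps 21.6% of its exonic bases, and the strand setting of the counting is not given, so its reads are uncertain.

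**Figure D3:**
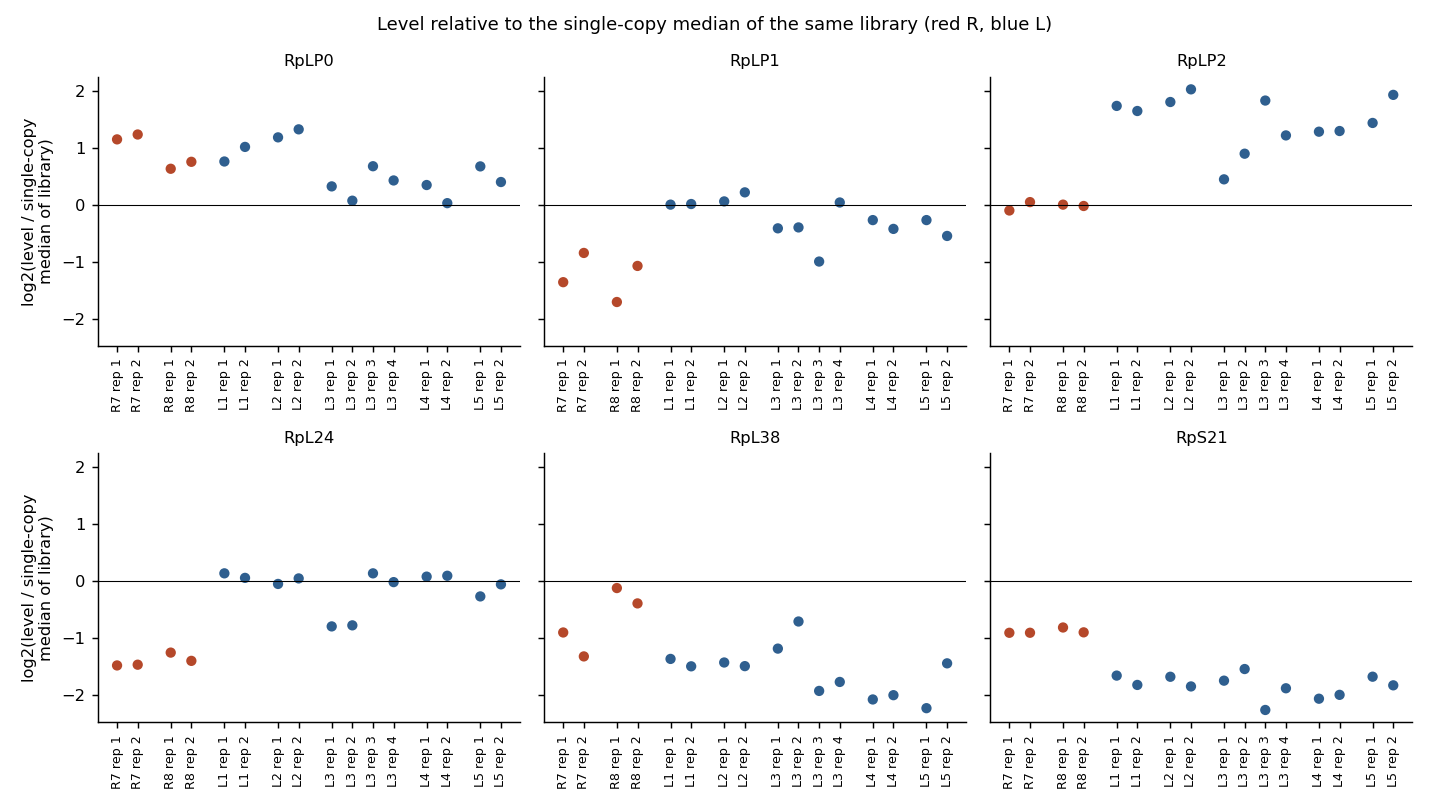
Level of 6 members as log2 of the ratio to the single-copy median of the same library, R7 and R8 in red and L1 to L5 in blue. RpLP2 and RpL24 are lower and RpS21 higher in all 4 photoreceptor libraries than in any lamina library, while RpLP0, RpLP1 and RpL38 overlap between the groups.

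The copies of most duplicated genes were expressed very unequally. The RpL34, RpS14 and RpL24 pairs were less one-sided: RpL24-like held 28.8 to 37.8% of its pair in R libraries and 22.1 to 45.1% in L libraries, and the others are given below. In the pairs RpS10, RpS28 and RpL10A one copy held at least 98.7% of the pair's summed RPKM in every library: RpS10b, RpS28b and RpL10Ab. RpS19a and RpL37a held all but 0.485% and 0.113% at most. The 5 lowest members did not reach 1 RPKM in at least 2 libraries and were not tested: RpL10Aa, RpS28a, RpL37b, RpS28-like and RpL22-like. RpL10Aa, RpS28a and RpL37b each have 1 exon in the annotation, while their expressed partners have 2 or 3. They are not strictly silent in the table: RpL10Aa had about 36 reads in L3 replicate 4 and at most 11 elsewhere, and RpL22-like had about 155 reads in L4 replicate 1, at most 114 elsewhere and 0 in 3 lamina libraries.

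RpS5b was the member with the strongest cell type pattern. It stood at 41.2 and 51.3 RPKM in R7 and 96.3 and 94.5 RPKM in R8. In L3 it had 62.7, 71.0, 49.4 and 31.5 RPKM, whereas L1 had 7.95 and 10.0 RPKM, L2 5.999 and 6.80 RPKM, L4 3.66 and 3.31 RPKM, and L5 9.67 and 7.84 RPKM. The 8 libraries of R7, R8 and L3 thus lay above the other 8 without overlap, the lowest of them L3 replicate 4.

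Photoreceptors and L3 each differed from the other lamina cells. R7 and R8 against L1 to L5 gave a log2 difference of 2.60 ± 0.18 (adjusted p = 4.26e-08, limma), or 4.36-fold by mean RPKM, and 10.3-fold with L3 left out. L3 against the other 4 lamina types gave 2.80 ± 0.18 (adjusted p = 1.40e-07, limma), or 7.77-fold by mean RPKM. Both calls held with any 1 library left out and after ribosomal scaling (1.83 and 2.79). L3 stood at 75.8% of the photoreceptor mean and the other lamina types together at 9.75%. The 6 photoreceptor markers with at least 100 RPKM in R7 and R8 stood in L3 at 2.31 to 5.94% of their photoreceptor level.

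RpS5b also differed within each class. R7 lay below R8, with a difference of −1.04 ± 0.30 (adjusted p = 0.0461, limma). This was the only call among the members between R7 and R8, where 3.2% of all genes were called higher and 7.14% lower, and it was lost in 10 of 16 fits with 1 library left out, each of the R7 and R8 libraries among them, with an adjusted p of up to 0.313. L4, the lowest type, lay below the mean of the other lamina types (−1.63 ± 0.24, adjusted p = 0.000273, limma). This call held with any 1 library left out, but the high level in L3 raises that mean and enlarges the difference. L2 also lay below them (−0.73 ± 0.24, adjusted p = 0.0423), but that call was lost without either L2 library and in 8 other fits.

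The partner RpS5a followed the rest of the set. It stood at 1685 and 1742 RPKM in R7 and 1547 and 1862 RPKM in R8, against 538.3 to 1421 RPKM in the lamina, and L3, at 538.3 to 854.9 RPKM, lay at the low end of that range. RpS5b therefore made up 2.39 to 5.86% of the pair in R libraries, 4.48 to 8.40% in L3 and 0.233 to 1.18% in the other lamina types. The ratio of the copies between R and L libraries overlapped, since L3 lay with R8, and the exact permutation test over the 4 and 12 libraries gave an adjusted p of 0.527.

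Markers of germ cells were looked at beside RpS5b, since it is known from the ovary. Of 14 germline markers 10 stayed under 1 RPKM in every library, and nos and osk did not exceed 0.0854 and 0.0472 RPKM. The summed level of the 14 was 24.2 to 36.0 RPKM in R libraries and 11.8 to 21.0 RPKM in L libraries, mostly from tud, a gene of the germ plasm, at 22.6 to 33.2 RPKM in R libraries and 6.11 to 17.9 RPKM in L libraries. vas, the germ cell RNA helicase, stood at 3.72 to 9.48 RPKM in L3 and at most 0.506 RPKM in any other lamina library, but at 0 to 0.0467 RPKM in R7 and R8. Its level thus stood high beside RpS5b in L3 but near 0 in photoreceptors, and its part in the result was not tested. Among the germline markers tested for R against L, only tud (1.31 ± 0.15) was called higher. Called lower were vas (−0.77 ± 0.19) and aub (−0.43 ± 0.13), and orb (0.08) was not called (limma).

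**Figure D4:**
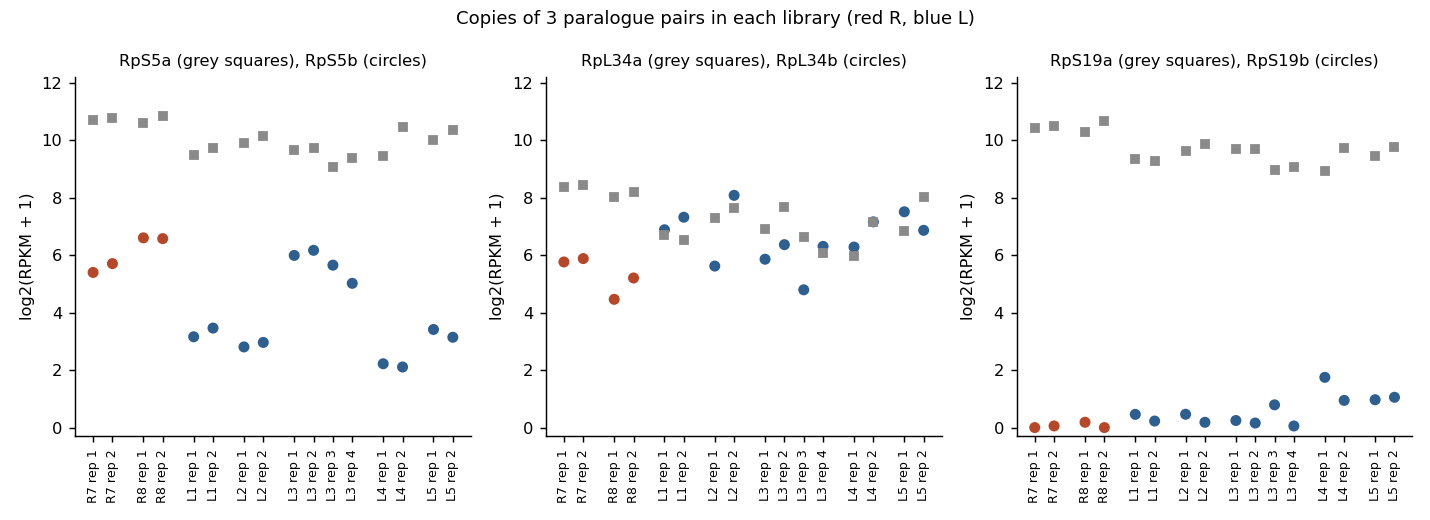
Log2(RPKM + 1) of both copies of 3 pairs in each library, the a copy as grey squares and the b copy as circles, red for R7 and R8 and blue for L1 to L5. RpS5b is high in R7, R8 and L3, RpL34b is close to or above RpL34a in many lamina libraries and well below it in photoreceptors, and RpS19b is near 0 in R7 and R8.

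The balance of the RpL34 pair differed between photoreceptors and lamina neurons. RpL34a, a large-subunit gene, stood at 330.8 and 350.8 RPKM in R7 and 258.4 and 290.0 RPKM in R8, against 61.1 to 257.2 RPKM in the lamina, with no overlap (log2 difference 1.28 ± 0.29, adjusted p = 0.00188, limma). RpL34b stood at 53.4 and 58.0 RPKM in R7 and 21.1 and 36.0 RPKM in R8. In the lamina it had 117.3 and 159.1 RPKM in L1, 48.3 and 270.4 RPKM in L2, 57.1, 81.6, 26.8 and 78.2 RPKM in L3, 76.9 and 142.2 RPKM in L4, and 181.6 and 115.7 RPKM in L5. The groups overlapped through L2 replicate 1 and L3 replicates 1 and 3, and the replicates of L2 lay far apart. The log2 difference was −1.41 ± 0.40 (adjusted p = 0.00765, limma), and it held with any 1 library left out.

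RpL34b made up 7.54 to 14.2% of its pair in R libraries and 21.3 to 63.5% in L libraries, so the shares did not overlap. It was the majority copy in L1, in L2 replicate 2, in L3 replicate 4, in L4 replicate 1 and in L5 replicate 1, and both copies were equal in L4 replicate 2. The log2 ratio of RpL34b to RpL34a was −2.93 on average in R libraries and −0.36 in L libraries, a difference of −2.56. The exact permutation test, two-sided over 4 and 12 libraries, gave p = 0.0011, the smallest it can give, and 0.00495 after adjustment over 9 pairs. With the 7 type means as units the difference was −2.69 and p = 0.0952, the smallest that design allows (exact permutation test).

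**Figure D5:**
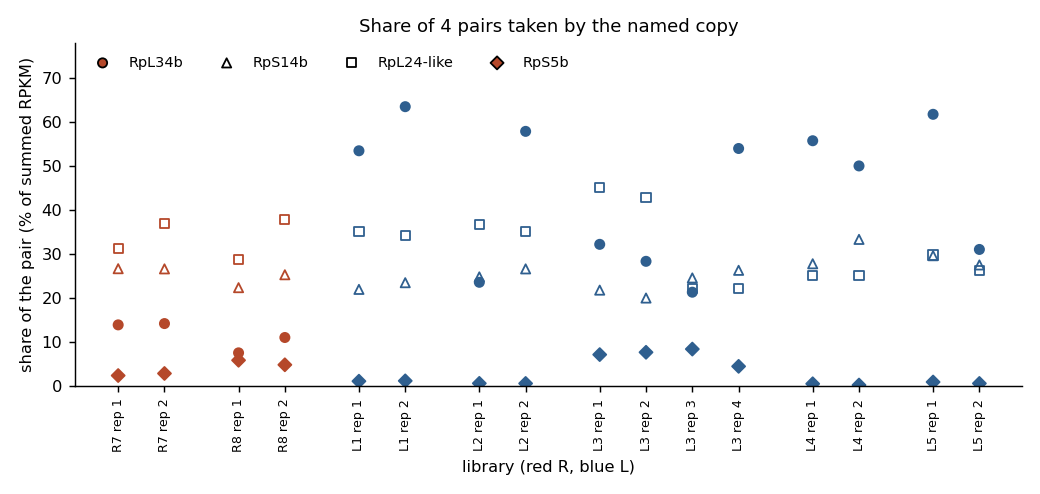
Share of the summed RPKM of a pair taken by RpL34b, RpS14b, RpL24-like and RpS5b in each library, red for R7 and R8 and blue for L1 to L5. RpL34b takes 7.54 to 14.2% in photoreceptors and 21.3 to 63.5% in the lamina, while RpS14b and RpL24-like overlap between the groups and RpS5b stands out in R7, R8 and L3.

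RpS19b, the copy known from germ cells, was barely detected. It was listed at 0 in R7 replicate 1 and R8 replicate 2, at 0.0398 RPKM in R7 replicate 2 and at 0.137 RPKM in R8 replicate 1, against 0.0392 to 2.36 RPKM in the lamina, where L4 and L5 were highest. These levels rest on about 0 to 14 reads in each R library and 2 to 80 reads in each L library. It entered the test through 2 lamina libraries above 1 RPKM, L4 replicate 1 and L5 replicate 2, so the difference of −0.61 ± 0.17 (adjusted p = 0.00633, limma) depends on where it is high. L4 lay above the mean of the other lamina types (0.85 ± 0.22, adjusted p = 0.0144, limma). This call depends in the same way on where RpS19b is high, and L4 replicate 2 lay below both L5 libraries. The call was lost after ribosomal scaling and with a pseudocount of 0.1. RpS19a had 1265 to 1628 RPKM in R libraries and 484.0 to 934.5 RPKM in L libraries. With RpS19b near 0 in the R libraries, the log2 ratio of RpS19b to RpS19a on the log2(RPKM + 1) scale mostly follows RpS19a there, and nothing was read from its test.

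Markers of the testis, another tissue where b copies and -like copies are used, were low but not absent. Of 12 such markers 7 stayed under 1 RPKM in every library. Their summed level was 6.15 to 8.58 RPKM in R libraries and 14.9 to 25.6 RPKM in L libraries, mostly from betaTub85D, the testis beta-tubulin, at 2.85 to 4.05 RPKM in R libraries and 13.2 to 23.4 RPKM in L libraries. Of the 4 testis markers tested, betaTub85D (−2.00 ± 0.09) and Mst77F (−0.47 ± 0.19) were called lower in photoreceptors, mia (1.02 ± 0.19) was called higher and twe (0.15) was not called (limma). The sum, carried by betaTub85D, was lower in R libraries, as were RpS19b and RpL34b, and its part in either result was not tested.

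The remaining 7 pairs with a testable ratio showed no difference past the threshold, with adjusted p from 0.527 to 0.894 over the 9 pairs (exact permutation test). RpS14b held 22.4 to 26.7% of its pair in R libraries and 19.996 to 33.3% in L libraries. RpS15Ab, a copy with 1 exon, held 3.73 to 5.20% in R libraries and 3.39 to 6.03% in L libraries. Its level was 165.2 to 208.1 RPKM in R libraries and 86.5 to 192.8 RPKM in L libraries, and its difference of 0.62 ± 0.16 (adjusted p = 0.00510, limma) turned to −0.15 after ribosomal scaling, as those of RpS14a and RpS14b turned to −0.05 and −0.12. The calls of RpS14a (0.72 ± 0.25) and RpS14b (0.66 ± 0.23) were lost without most single R7 or R8 libraries, RpS14b keeping its call only without R8 replicate 1. RpS10a, also without introns, stayed at 0.669 to 1.15 RPKM in R libraries and 0.0704 to 3.34 RPKM in L libraries, where L3 replicates 1 to 3 and both L4 libraries stood above 1 RPKM.

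RpLP0-like, RpL7-like and RpL24-like, whose yeast counterparts act in the assembly of the large subunit rather than in the finished ribosome, differed from each other. RpLP0-like stood at 36.0 to 44.9 RPKM in R libraries and 7.43 to 36.0 RPKM in L libraries, and was called higher in photoreceptors (1.22 ± 0.17, adjusted p = 4.60e-05, limma). RpL7-like stood at 130.1 to 133.9 RPKM in R libraries and 55.1 to 99.7 RPKM in L libraries (0.89 ± 0.11, adjusted p = 1.85e-05, limma), but 98.8% of its exonic bases overlap another gene on the same strand, so its reads cannot be assigned. RpL24-like stood at 234.6 to 387.9 RPKM in R libraries and 185.4 to 532.3 RPKM in L libraries, with a difference of −0.39 ± 0.28 that was not called (adjusted p = 0.238). Relative to the single-copy median it stood at 16.2 to 23.0% in R libraries and 28.1 to 59.6% in L libraries. It was called lower after ribosomal scaling (−1.16, adjusted p = 8.98e-06, limma), as were 59.6% of all genes.

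RpL22, an RNA-binding large-subunit protein, was expressed far below the single-copy genes. Its mean over the types was 40.8 RPKM, and it stood at 2.0 to 2.2% of the single-copy median in R libraries and 2.1 to 15.6% in L libraries. Its level was 28.2 to 34.3 RPKM in R libraries and 16.4 to 126.2 RPKM in L libraries, and the difference of −0.22 ± 0.25 was not called. A non-coding gene overlaps 34.3% of its exonic bases on the same strand.

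The 5 lamina types were next compared with each other. Of 87 members 11.5% were called for any difference among L1 to L5, against 44.6% of all genes tested. The 10 members included RpS5b, RpS10a, RpS19b, RpS20, RpL4, RpL22, RpL23A, RpL30 and RpLP0-like. Without L4 replicate 1 the count of 10 became 16, and with quantile normalization it was 31, against 47.4% of all genes. Each lamina type was then set against the mean of the other 4. Shares of all genes are not given for counts with 1 library left out, above or below. Changes in those counts are therefore not read as particular to the members.

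By type mean, 48 of 65 single-copy genes, which moved together between libraries, had their lowest level in L1. Single libraries of other types reached as low, since the single-copy median was 695.1 and 736.0 RPKM in the L1 libraries, against 660.6 RPKM in L3 replicate 4 and 696.5 RPKM in L4 replicate 1. In L1, 0 members were called higher by limma, against 9.53% of all genes, and 0 reached an unadjusted p under 0.05 in that direction or a call with quantile normalization, and 9 of 87 members were called lower, a share near the 11.6% of all genes. They included RpS20 (−1.21 ± 0.21), RpL30 (−1.01 ± 0.24), RpL37A, RpS29, RpS15, RpL36, RpL13 and RpL31. RpS20, a small-subunit protein, had 207.3 and 216.2 RPKM in L1 and 360.7 to 729.9 RPKM in the other lamina libraries, without overlap. Leaving out 1 library moved the count between 1 and 16. It was 1 without L1 replicate 1, 2 without L1 replicate 2, 5 without either L2 library, L3 replicate 1 or either R7 library, 6 without L4 replicate 2, L5 replicate 2 or either R8 library, and 16 without L4 replicate 1. RpS20 kept its call in all of these fits, and RpL30 lost it without either L1 library. Shares of all genes called are not given for these fits, so the moves of the count are not read as particular to the members.

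In L2, 3 members were called higher, against 12% of all genes, and 1 lower, against 9.59%. Together they numbered 1 without L1 replicate 1 or either L2 library and 2 without L5 replicate 1. RpLP0-like had 36.0 and 31.8 RPKM in L2 and 7.43 to 22.9 RPKM in the other lamina libraries, without overlap (1.20 ± 0.23, adjusted p = 0.00261, limma). RpLP0 itself had 1943 and 2283 RPKM in L2 and 884.4 to 1741 RPKM in the others, again without overlap (0.75 ± 0.22, adjusted p = 0.0309). The call of RpLP0 was lost without either L2 library, L1 replicate 1 or L5 replicate 1. RpL7-like (0.53 ± 0.15) lost its call without either L2 library or L1 replicate 1.

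In L3, 2 members were called higher, against 12.5% of all genes, and 4 lower, against 10%. Together they numbered 3 without either L1 library or L2 replicate 2. RpL23A, a large-subunit protein at the exit of the nascent chain tunnel, had 152.6, 196.9, 145.8 and 165.0 RPKM in L3 and 247.6 to 653.8 RPKM in the other lamina libraries. The values did not overlap, the difference was −1.31 ± 0.23 (adjusted p = 0.00119, limma), and the call held with any 1 library left out and after ribosomal scaling. Genes on the same strand overlap 31.9% of its exonic bases, among them a snoRNA host gene. RpL4 (−0.71 ± 0.17) had 273.8 to 437.1 RPKM in L3 and 453.9 to 759.4 RPKM in the others, without overlap, and kept its call with any 1 library left out but not with L3 replicates 1 and 2 alone. RpS20, by contrast, was higher in L3 (0.56 ± 0.17), a call lost without L3 replicate 2, either L1 library, L2 replicate 2 or L5 replicate 1. The low level in L1 lowers the mean of the other types and enlarges this difference. Relative to the single-copy median, RpS20 in L3 (51.8 to 76.4%) overlapped L4 (61.5 and 57.8%). RpS10b (−0.97) and RpLP0-like (−0.55) each lost their call in 12 of 16 fits. For RpLP0-like, the high level in L2 raises the mean of the other types and enlarges the difference.

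In L4, RpS10a (1.02 ± 0.32) and RpS19b were called higher, 2 members against 11.5% of all genes, and RpS5b and RpLP0-like (−0.78 ± 0.23) lower, 2 against 12.3%. Together they numbered 2 without L1 replicate 2 or L4 replicate 2 and 8 without L4 replicate 1. RpS19b entered the test partly through a high L4 library, as given above, so its call carries that limit. RpS10a had 1.04 and 3.34 RPKM in L4, which overlapped L3, and it lost its call without L4 replicate 2 and in 5 other fits. RpLP0-like had 10.2 and 11.02 RPKM in L4 and 7.43 to 36.0 RPKM in the other lamina libraries, and it lost its call without either L4 library or L1 replicate 2. Its high level in L2 raises the mean of the other lamina types and enlarges the difference. In L5 only RpL22 was called higher, 1 member against 8.58% of all genes, and 0 lower by limma, against 8.89%, with 1 lower at an unadjusted p under 0.05. The count became 2 without L2 replicate 2 or L3 replicate 4 and 5 without L4 replicate 2. RpL22 had 126.2 and 57.2 RPKM in L5 and 16.4 to 51.7 RPKM in the other lamina libraries (1.45 ± 0.33, adjusted p = 0.00905, limma). The call was lost without L5 replicate 1 (adjusted p = 0.273) and after ribosomal scaling.

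Over all 7 types 60.9% of the members were called for some difference, against 70.9% of all genes. Shares of all genes are not given for the counts with 1 library left out that follow. Their fall is therefore not read as particular to the members. The 53 members called became 32 without L1 replicate 1, 34 without L1 replicate 2, 33 without R7 replicate 1, 30 without R7 replicate 2, 31 without R8 replicate 1 and 27 without R8 replicate 2.

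Other genes of the translation machinery were examined beside the ribosomal proteins. Counts below read against the same 31.7% higher and 30.2% lower of all genes in R7 and R8 as deposited, and against 10.2% higher and 59.6% lower after ribosomal scaling. Where 0 genes of a list are said to have fallen, 0 also reached an unadjusted p under 0.05 in that direction (limma). Of 72 mitochondrial ribosomal protein genes 50 rose and 4 fell, with a median of 0.73, but after ribosomal scaling 13 were called higher and 18 lower, with a median of −0.05. Ribosome biogenesis and RNA polymerase I genes rose in 20 of 23 and fell in 1, with a median of 0.84, and after scaling 4 were called higher and 2 lower, with a median of 0.07. They were led by nop5 (2.55 ± 0.19), Nop60B (2.12 ± 0.14) and Nop56 (1.58 ± 0.14), which act in the snoRNA particles that modify ribosomal RNA, and RpI1 (1.73 ± 0.16), the largest subunit of RNA polymerase I. CG8801, the fly Non1, fell by 0.65. Summed biogenesis levels were 767.2 to 871.0 RPKM in R libraries and 358.1 to 752.5 RPKM in L libraries, without overlap.

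Elongation and termination factors rose in 7 of 9 and fell in 0, with a median of 0.81, and after scaling 2 were called higher and 1 lower, with a median of 0.04. They were led by eEF1delta (1.94 ± 0.21), Ef1beta (1.33 ± 0.20) and Ef1gamma (1.12 ± 0.12), subunits of the complex that reloads elongation factor 1 alpha with GTP. Initiation factors were divided: 10 of 25 rose and 5 fell, with a median of 0.23, while after scaling 1 was called higher and 16 lower, with a median of −0.54. Among them eIF4E-6, a cap-binding protein, was higher (1.92 ± 0.20). The subunits of eIF2 and eIF2B, which act in the delivery of the initiator tRNA, were divided as well. As deposited, eIF-2alpha (−2.24 ± 0.20) and eIF2B-delta (−1.36 ± 0.23) were lower. Higher were eIF2B-beta (0.90 ± 0.16), eIF-2beta (0.87 ± 0.12), eIF2B-epsilon (0.42 ± 0.11) and eIF2B-alpha (0.34 ± 0.13). Neither eIF-2gamma (−0.03) nor eIF2B-gamma (0.05) was called. Of the ribosomal proteins that carry other symbols, Rack1, a scaffold on the small subunit, rose (0.56 ± 0.20, or −0.21 after scaling) and sta, the fly RpSA, fell (−1.25 ± 0.24).

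Regulators of ribosomal protein genes and growth rose in 4 of 13 and fell in 2, and after scaling 3 were called higher and 9 lower. dm, the fly Myc, had a difference of 1.98 ± 0.18, Thor, the inhibitor of cap-dependent initiation, 1.84 ± 0.23, La 1.20 ± 0.12 and foxo 0.67 ± 0.10, the last at −0.10 after scaling. Dref (−0.37 ± 0.11) and CG9797 (−0.33 ± 0.11), the factor M1BP, fell. Both bind promoters of many housekeeping genes, M1BP those of ribosomal protein genes among them. Genes of the response to ribosome loss changed in both directions, with 5 of 8 higher and 3 lower, or 2 higher and 3 lower after scaling. The apoptosis inducer rpr (2.72 ± 0.21) and crc, the fly ATF4 (1.43 ± 0.11), were higher, while W, the gene hid (−1.72 ± 0.13), and puc (−0.79 ± 0.12) were lower. Of 6 quality control genes 3 rose and 0 fell, or 0 higher and 2 lower after scaling. They were Clbn (1.18 ± 0.10), Upf2 (0.85 ± 0.10) and pelo (0.42 ± 0.10), the last at −0.35 after scaling.

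These lists hold the same libraries and scaling as the ribosomal protein genes and are not independent of them. Markers of other cell types gave few calls: of 7 tested glia markers nrv2 rose (3.12 ± 0.15) and Gs2 fell (−0.66 ± 0.22), with repo, a defining glia gene, at 0.252 to 1.18 RPKM in R libraries and 0.151 to 0.836 RPKM in L libraries. Among blood cell markers 5 of 7 stayed under 1 RPKM in every library, and the 2 tested moved in opposite directions. Pxn, at 0.265 to 0.516 RPKM in R libraries, reached 13.7 to 278.3 RPKM in L libraries. The other, crq, stood at 24.8 to 27.7 RPKM in R libraries and 5.17 to 9.78 RPKM in L libraries (log2 difference 1.83 ± 0.12, adjusted p = 3.50e-08, limma). Of the tested fat body (3), cone and pigment cell (6) and proliferation (2) markers, 0 were called between R and L by limma as deposited, and 1 had an unadjusted p under 0.05. Their part in the ribosomal protein results was not tested.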

How the data were processed

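RNA-seq of 16 libraries from 7 sorted cell types was used. The authors deposited RPKM values for 15682 genes. Per the submitters' processing notes, the aligner was TopHat and the genome build BDGP5; the version, counter, annotation and strand setting were not found in the sources used here. Per the labels' protocols, pupal brain tissue was dissociated with proteases, sorted by flow cytometry and made into libraries from total RNA. Values were used as deposited, and no sample column was left unused.

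Depth was recovered from steps between low values and current gene lengths (47.1 M to 153.6 M reads). Since only 70.3 to 74.1% of values of 20 reads or fewer were within 0.05 of a whole number, no count test was run, and read numbers in the text are approximate. Mitochondrial genes held 3.96 to 14.6% of reads.

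The fit took the 9346 genes, 87 of the 92 members among them, that reached 1 RPKM in 2 or more libraries. They were fitted as log2(RPKM + 1) in R 4.3.3 (limma 3.58.1), using 1 mean per type and a variance trend. Such differences understate the change of low genes. The script was tested on simulated data. Benjamini-Hochberg adjustment covered all genes tested, and an adjusted p under 0.05 was called. Ratios of copies were tested by exact permutation over libraries (scipy 1.17.1). The members, gene lists and tests were chosen with earlier results of these data known. Named genes are all paired copies, the 5 called members with the largest R against L difference each way, 3 each way for other contrasts, the 5 highest and lowest members, and up to 4 called genes per other list. Genes outside this rule (stalk proteins, RpL15, RpL8 and others in ranges, vas, tud, orb, further eIF2 and eIF2B subunits, betaTub85D, repo) were chosen after their values were seen.

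Alternatives were no filter, a pseudocount of 0.1, quantile normalization, ribosomal median scaling, a replicate block, pairs of L3 libraries, each library left out, type means for the ratios and, added after seeing the data, L3 left out of the lamina mean. Of the member IDs 87 matched the current annotation (BDGP6), from which chromosome arms, exon numbers and exon overlaps came; coordinates are not given since the builds differ. The listed names sop, EF2, eEF5, Larp, Hbs1, Znf598 and Pax2 were not matched. Results for 1 member are not reported here.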

Additional observations from a re-analysis of the deposited data

Results flagged for a closer look

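In the 92 groups of 4 libraries tested, which are the 4 L3 libraries of each member, 2 had 1 library far from the others. Chance alone flags about 1 in 20 such groups. RpLP0 stood at 886.7 RPKM in L3 replicate 4, below 1224, 1279 and 1261 RPKM in the other L3 libraries. RpS29 stood at 8095 RPKM in L3 replicate 2, above 4773, 4782 and 4646 RPKM in the others. L3 replicates 2 and 4 also had the highest and lowest single-copy median of the L3 libraries (1219 and 660.6 RPKM). As a percentage of that median, RpS29 stood at 487.0, 664.1, 605.4 and 703.2% in L3 replicates 1 to 4. RpLP0 stood at 124.9, 104.9, 159.6 and 134.2%. On this measure neither flagged library was the highest or lowest of the 4.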

How the results depend on the processing

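Of 87 members, R against L gave 67 higher and 4 lower, and 10 lower with quantile normalization. Ribosomal median scaling gave 19 and 19, against 10.2% of all genes called higher and 59.6% lower. With L3 also left out of the lamina mean it gave 18 and 18. This scaling sets the single-copy median near 0 in advance, so these splits do not test the rise. The single R7 against R8 call became 0 without a filter, with a pseudocount of 0.1 and with ribosomal scaling, and 2 with quantile normalization. Counts for single lamina types against the others (9 for L1, 4 for L2, 6 for L3, 4 for L4, 1 for L5) became 4 for L1 and 2 for L2 without a filter. With quantile normalization they were 19 for L1, 16 for L3, 14 for L4 and 3 for L5, and 4 for L5 with ribosomal scaling. With L3 replicates 1 and 2 only they were 20 for L1, 14 for L3 and 3 for L5. Members called for any difference among L1 to L5 (10) became 31 with quantile normalization, 26 with L3 replicates 1 and 2 only and 16 with L3 replicates 3 and 4 only, and those among all 7 types (53) became 28 without a filter. The cause of these changes was not tested. Shares of all genes called are not given beside the other counts in this section. A changed count is therefore not read as a change particular to the members.

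With 1 library left out, the counts ran from 51 to 71 for R against L higher, 2 to 4 lower, 0 to 1 for R7 against R8, 1 to 16 for L1, 1 to 5 for L2, 3 to 8 for L3, 2 to 8 for L4, 1 to 5 for L5, 7 to 16 among L1 to L5 and 27 to 63 among all types. The log2 ratio of copies, R minus L, ran from −2.70 to −2.36 for RpL34b, −1.66 to −1.41 for RpS19b, 1.06 to 1.51 for RpS5b, 0.39 to 0.76 for RpS10b, −0.28 to −0.11 for RpS15Ab, 0.09 to 0.23 for RpLP0-like and 0.07 to 0.27 for RpL24-like. It changed sign for RpL7-like (−0.0029 to 0.11) and RpS14b (−0.065 to 0.052), where it was 0.03 without L4 replicate 2, 0.0037 without L5 replicate 1 and 0.052 without R8 replicate 1. With type means it was −2.69 for RpL34b and −1.61 for RpS19b, past no threshold that design can reach.

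Differences that changed sign with ribosomal scaling, and with that scaling and L3 left out, were those of RpS10a, R against L (−0.67 and −0.54, and as deposited −0.0091 to 0.21 with 1 library left out, the lowest without L4 replicate 1), RpS10b, R against L (−0.30 and −0.49), RpS14a, R against L (−0.054 and −0.030), RpS14b, R against L (−0.12 and −0.15), and RpS15Ab, R against L (−0.15 and −0.18). For RpS10a, a gene of low RPKM, the shift came after the pseudocount, so its scaled sign is not read as a relative level.

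The labels tie no replicate number to a shared animal or batch, and deviations of same-numbered libraries correlated at −0.06 to 0.32 over 21 pairs of types, 9 of them over 0.1, so the numbers were not taken to pair the libraries. The single-copy median difference of replicate 2 from replicate 1 was nevertheless above 0 in all 7 types, at 0.05 (L1) to 0.84 (L4) on the log2 scale. A replicate block gave 36 calls for L1, 7 for L2, 21 for L3, 14 for L4, 9 for L5, 2 for R7 against R8 and 39 among L1 to L5. Replicate numbers above 2 occur only in L3, so the block also took those L3 libraries out of the differences. The median differences over the members equalled those with L3 replicates 1 and 2 only (R against L 0.75, L1 −0.41, L3 0.29). Pairing and the loss of these L3 libraries were not tested apart, so the block counts are not read as an effect of pairing.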
